A study of Mus musculus with 2 samples.

Results

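Mitochondrial ribosomal proteins were examined in activated mouse T cells through every probe set annotated to a single gene symbol that starts with Mrpl or Mrps followed by a number. This rule, which uses no measured value, found 156 probe sets for 76 genes, of 45037 probe sets and 18193 named genes on the array. The symbols place 47 genes (104 probe sets) in the large subunit and 29 genes (52 probe sets) in the small subunit. A further 4 probe sets that carry such a symbol beside that of another gene were left out, so Mrpl30 and Mrpl53 were not analysed here.

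The mitochondrial ribosome sits in the mitochondrial matrix and translates the few messages of mitochondrial DNA, which encode core subunits of the respiratory chain and of ATP synthase. All of its proteins are encoded in the nucleus, made in the cytosol and imported, whereas its RNAs are transcribed in the mitochondrion. The small subunit binds the message and decodes it, and the large subunit joins the amino acids and passes the new chain towards the inner membrane. Many of the proteins have a counterpart in bacterial ribosomes and others are found only in mitochondria.

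The samples were 5cc7 T cells, which carry a transgenic receptor specific for a moth cytochrome c peptide, stimulated in culture with the peptide that the labels write as MCC and collected as blasts 5 days later. Polyadenylated RNA was the labelled molecule, and 2 Affymetrix mouse 430 2.0 arrays, called set 1 and set 2 as in their titles, form the 1 group of the study. The sources used here do not give the strain, age or number of the mice or the purity of the cells, and hold no resting control. Nothing in the labels says that the arrays hold RNA of separate cultures, so their spread may be technical, and with 1 group no comparison between conditions could be tested.

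A background bound for each array, 54.8 on set 1 and 59.1 on set 2, was set at the 95th percentile over 53 probe sets of genes typical of kidney, pancreas, eye and liver. Above background, here, means brighter than this bound on set 1 and on set 2 alike. A gene counted as above background through any 1 of its probe sets. The T cell label was borne out by its markers, 7 of 7 of which were above background, with Cd3d, a chain of the receptor complex, at 4882.9 on set 1 and 4459.9 on set 2. B cell markers were above background in 3 of 5 cases (Ms4a1, Cd79a and Cd79b, not Pax5 or Ebf1), and their summed intensity was 755.7 and 729.5. For macrophages and dendritic cells 1 of 7 markers was (Csf1r, 57.3 and 146.7), with sums of 232.7 and 389.9. For NK and erythroid cells it was 0 of 3 and 0 of 2 measured markers. In the erythroid list of 4 genes, 2 were not analysed. Outside these counts, a probe set annotated to several beta-globin genes, Hbb-b1 among them, was above background. The 0 of 2 thus does not show that erythroid RNA was absent. The part of other cells in the values below was not tested, and in a bulk sample fewer cells of a type and less RNA per cell cannot be told apart.

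All 76 mitochondrial ribosomal protein genes were above background, 47 of 47 for the large subunit and 29 of 29 for the small subunit. Over all named genes the share was 46.6%. The members have more than 1 probe set in 42 cases, which gives a gene more than 1 chance to pass, and the other 34 passed with their only probe set. Among all named genes with 1 probe set 31.2% were above background, and among those with more than 1 it was 62.3%. Taken singly, set 1 and set 2 each gave 76 of 76, where 49.3% and 48.7% of named genes passed. The count was also 76 with the bound at the 90th percentile of the same list (48.9% of named genes) and with the median of all probe sets as the bound (55.4%). With the bound from a second off-tissue list, near 90 on either array, the count was 72, as Mrps10, Mrps25, Mrps27 and Mrps28 fell below it, against 38.1% of named genes.

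The brightest probe set of each gene gave its level, in the deposited linear intensity, and a mean is given ± SD over both arrays (n = 2). Over the 76 genes these levels ran from 78.3 to 939.85, with quartiles at 201 and 425 and a median of 295. The 8483 named genes above background had a median of 210 with quartiles at 117 and 422, and their highest value was 8789.5. Probes differ in how strongly they bind, so these levels do not rank one gene's abundance over another's.

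**Figure D1:**
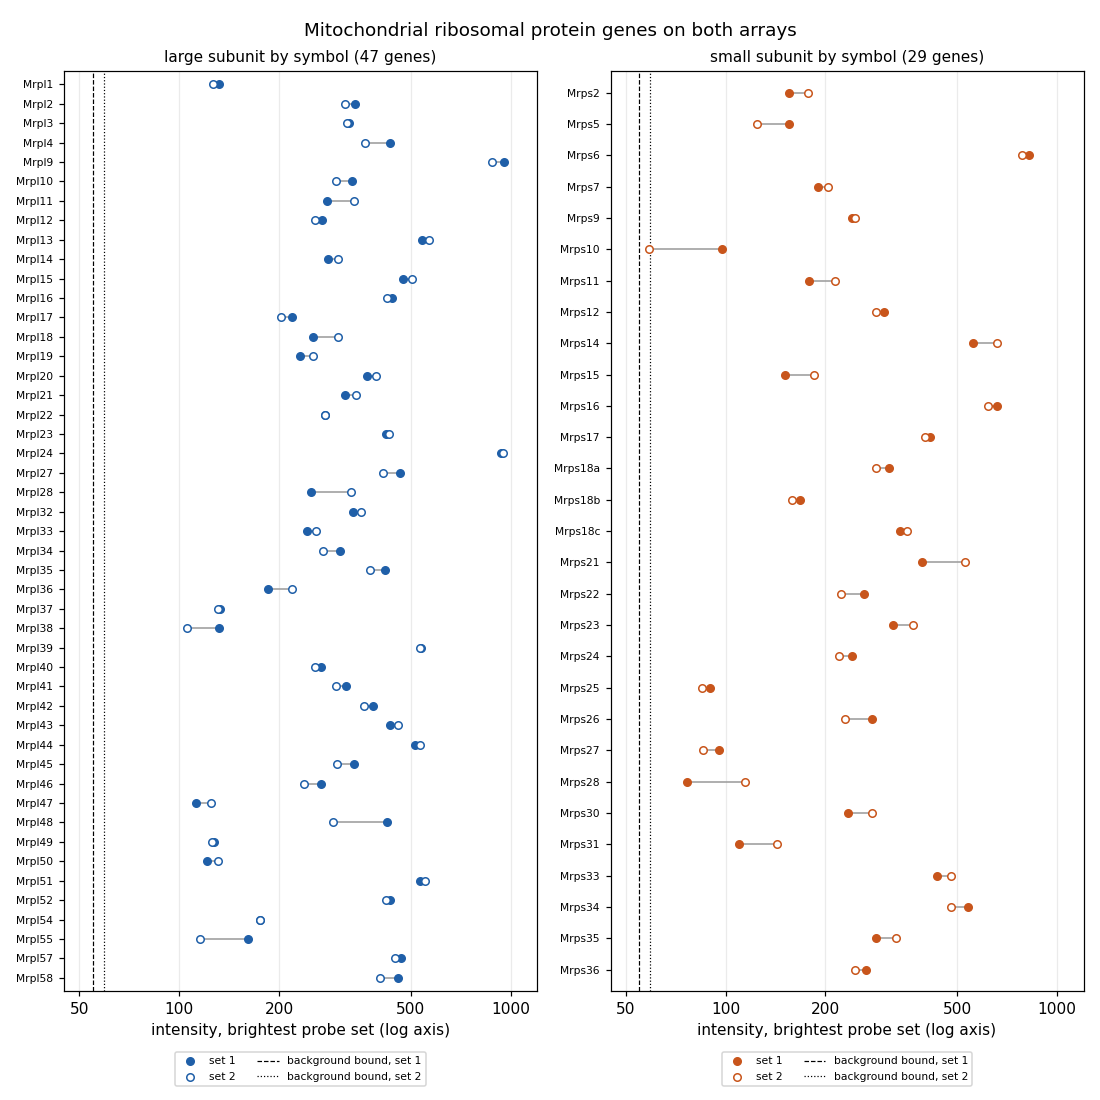
Intensity of the brightest probe set of each gene on set 1 (filled) and set 2 (open), on a log axis, for 47 genes of the large and 29 of the small subunit; the dashed and dotted lines are the background bounds of 54.8 and 59.1. All but 4 genes have a mean of at least 100, and these 4 (Mrps10, Mrps25, Mrps27 and Mrps28) are all named for the small subunit; Mrps10 lies under the bound on set 2 by this probe set and was called through its other one.

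The large and the small subunit overlapped over most of their range. Levels of the 47 large subunit genes ran from 118 to 939.85 with a median of 318 and quartiles at 252 and 428. Those of the 29 small subunit genes ran from 78.3 to 802 with a median of 252 and quartiles at 166 and 344. Under 100 lay 0 large and 4 small subunit genes, and at 400 or more lay 14 of 47 and 7 of 29. On single arrays the medians were 324 and 317 for the large subunit and 261 and 245 for the small. Genes are not replicates of a subunit and the probes differ, so the gap between the medians was not tested.

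Symbols do not match positions for 3 members. In structures of the mammalian mitochondrial ribosome the products of Mrps18a and Mrps30 lie in the large subunit, and the product of Mrps36 is now described as a part of the 2-oxoglutarate dehydrogenase complex. Mrps18a was at 298 ± 19.2, Mrps30 at 255 ± 29.7 and Mrps36 at 255 ± 13.6. With these genes placed by structure, 49 large subunit genes had a median of 314 and 26 small subunit genes a median of 243. The order of the medians was thus the same under both assignments.

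Proteins with a bacterial counterpart and proteins found only in mitochondria were detected alike. In the large subunit by structure, 29 genes with a counterpart had a median of 314 and 19 genes without one a median of 318. In the small subunit the medians were 230 over 17 genes and 252 over 9. Mrpl55 was left out of this division, as was Mrps36. The difference between these classes was not tested.

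The large subunit genes described next were above background, as were all 47 of that subunit. Mrpl2 and Mrpl3, homologues of core bacterial proteins that hold the catalytic RNA, were at 340.1 and 317.2, and at 324.3 and 320.3, on set 1 and set 2. Mrpl16 and Mrpl27, whose bacterial homologues contact the transfer RNAs, were at 439.4 and 424.7, and at 463.6 and 411.2. Mrpl4 measured 398 ± 48.4 and Mrpl36, a very small zinc-binding protein, 202 ± 23.1. Each of these genes stood well clear of the bound on both arrays.

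The stalk proteins recruit translation factors to the ribosome. Mrpl10 was at 330.9 on set 1 and 296.1 on set 2, and Mrpl12, which is also reported to bind the mitochondrial RNA polymerase, at 269.7 and 257.5. Mrpl11, at the base of the stalk, was at 278.3 and 335.9 by its brightest probe set. Mrpl1, of the neighbouring L1 stalk where transfer RNA leaves, was at 132.3 and 126.1 by the brightest of 3 probe sets. These values place each stalk gene clear of the bound on both arrays.

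At the exit of the peptide tunnel, Mrpl23 was at 425 ± 7.85, Mrpl24 at 940 ± 10.4 and Mrpl45, which anchors the ribosome to the inner membrane, at 318 ± 26.2. Mrpl44, which has a fold related to ribonuclease III, was at 524 ± 13.0, and 4 of its 4 probe sets were above background. Mrpl58, which can free a stalled ribosome of its peptide, was at 430 ± 37.3. The large subunit probe sets with the highest means were those of Mrpl24, Mrpl9 (954.9 and 877.7), Mrpl13 (541.6 and 565.3), Mrpl51 (534 and 549.3) and Mrpl39 (537.7 and 533.2). In each of these 5 genes the arrays were close to each other relative to the level, with SDs of 10.4, 54.6, 16.8, 10.8 and 3.18 in the same order.

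In the small subunit, Mrps12, a protein of the decoding centre, was at 300.9 on set 1 and 283.6 on set 2. Proteins of the head and body with bacterial counterparts included Mrps2 at 166 ± 15.7, Mrps7 at 197 ± 9.62, Mrps14 at 608 ± 70.0 and Mrps16 at 637 ± 26.9. Mrps5 had 155.1 and 124 and Mrps15 had 151.1 and 185.1 on set 1 and set 2, so set 1 was the higher array for the first and set 2 for the second. The probe sets with the highest means belonged to Mrps6 (819.1 and 784.6), Mrps16, Mrps14, Mrps34 (537.3 and 476.8) and Mrps21 (390.5 and 527.8). Of these, Mrps21 had the widest gap between the arrays.

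Mitochondria-only proteins of the small subunit ran from 87.3 to 507, below its highest levels, which were those of Mrps6, Mrps16 and Mrps14. Mrps22 was at 242 ± 27.2, Mrps34 at 507 ± 42.8 and Mrps35 at 305 ± 29.6. Mrps27, a protein of the pentatricopeptide repeat family that binds RNA, was at 95.3 and 85.2 by its only probe set. Mrps25 was at 89.5 and 85.1 by the brightest of 3 probe sets.

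The 3 Mrps18 genes encode homologues of 1 bacterial protein. Mrps18a was at 311.6 and 284.5, Mrps18b at 167.3 and 159 and Mrps18c at 336.4 and 352.2 on set 1 and set 2. All were measured by 1 probe set each and exceeded the bound on both arrays.

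The weakest calls were in the small subunit. Mrps28 had 76.3 on set 1 and 114.2 on set 2, so its level rested on a single probe set whose arrays differed. For Mrps10 the brightest probe set had 97.7 on set 1 and 58.9 on set 2, just under the bound, and the call came from the second probe set at 67.5 and 65.1. By the brightest probe set of each gene the higher array stood well over the lower one, in opposite directions. The probe set behind the Mrps10 call gave close values on both arrays.

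Probe sets of a single gene often disagreed. Of the 42 genes with more than 1 probe set, all probe sets were above background in 12 and only some in 30, where 22.8% of all such named genes had all above. In the large subunit it was all in 6 of 28 genes and in the small subunit in 6 of 14. The call rested on 1 of 2 probe sets for Mrpl27, Mrpl33, Mrpl34, Mrpl42, Mrpl54, Mrpl57, Mrpl58, Mrps10, Mrps11, Mrps26 and Mrps31. It rested on 1 of 3 for Mrpl17, Mrpl35, Mrpl38, Mrpl47, Mrpl51 and Mrps25, and on 2 of 3 for Mrpl1, Mrpl21, Mrpl41, Mrpl48, Mrps14 and Mrps15. Above background were 2 of 4 probe sets of Mrpl3, 3 of 4 of Mrpl11, Mrpl13, Mrpl19 and Mrpl52, 6 of 8 of Mrpl15 and 2 of 5 of Mrps5.

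The gap between the brightest and the dimmest probe set of a gene was 9.73-fold at the median of the 42 genes and ran from 1.06-fold for Mrpl49 to 158-fold for Mrpl41. The 3 probe sets of Mrpl41 had means of 308, 152 and 1.95. When a gene was given the middle value of its probe sets in place of the brightest, 69 of 76 genes exceeded the bound on both arrays, and Mrpl17, Mrpl35, Mrpl38, Mrpl47, Mrpl51, Mrps5 and Mrps25 did not. Over all named genes that rule gave 39.5%.

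**Figure D2:**
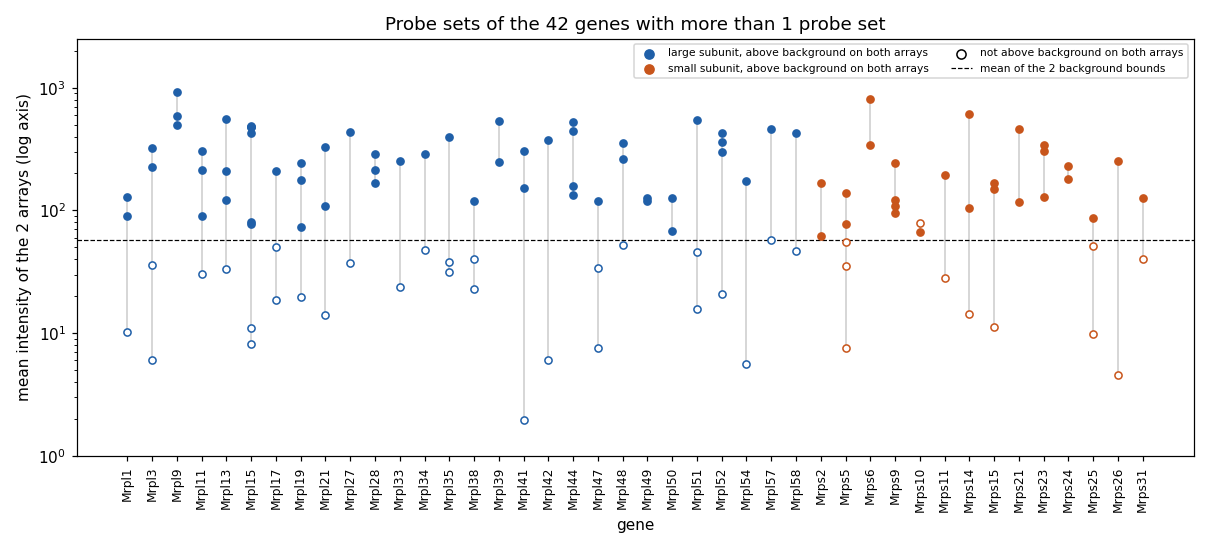
Mean intensity of the 2 arrays, on a log axis, for each probe set of the 42 genes with more than 1; filled points were above background on both arrays, open points were not, and the dashed line is the mean of the 2 bounds. In 30 genes filled and open points occur together, and the widest gap is that of Mrpl41.

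The kind of probe set went with the call. Of member probe sets, 116 of 156 (74.4%) were above background, against 37.2% of all probe sets on the array. Among those annotated with a RefSeq messenger RNA accession (NM_) it was 30 of 31, and among those with another accession or none 86 of 125. For all named probe sets the same shares were 43% and 40.7%. All 31 member probe sets whose name ends in _a_at, which recognise several transcripts of a gene, were above background, as were 9 of 9 ending in _s_at and 13 of 14 in _x_at, which can match transcripts of other genes. Of those ending in plain _at it was 63 of 102. Over all named probe sets the shares were 57.2% for _a_at, 57% for _s_at, 51.2% for _x_at and 36.8% for plain _at, so plain _at was lowest there too. Mrpl37, Mrpl38, Mrps12 and Mrps24 were called above background through _s_at probe sets only. The level of Mrps6 also came from an _s_at probe set, and its plain _at probe set had 371.9 on set 1 and 316.1 on set 2. Pseudogenes named after a member are listed by RefSeq for Mrpl23, Mrpl27, Mrpl48 (1 each) and Mrps36 (3), so the values of these genes are uncertain where a pseudogene is transcribed.

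The arrays gave similar values for the members. The 116 member probe sets above background had a Pearson's r of log2 intensity between the arrays of 0.968, given as a description across probe sets, which are not independent. Over all 16767 probe sets above background it was 0.985. These reach a mean of 8789.5 and the members 939.85. Because r depends on the range, the 2 values of r are not directly comparable. Differences between the arrays were taken on the log2 scale, set 2 minus set 1, and centred on the median of all probe sets above background, and their SD was 0.23 for the members and 0.24 for all. The median difference of the members was -0.04. Past 1.5-fold lay 0 member probe sets higher on set 2 and 2 of 116 lower, against 1.9% and 0.775% of all probe sets above background, and 0 lay past 2-fold, against 0.185%. With counts this small the shares do not set the members apart from the background.

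Both probe sets lower on set 2 belong to large subunit genes. One for Mrpl19 had 212.5 on set 1 and 138.5 on set 2 (log2 difference -0.64), and one for Mrpl11 had 109 and 72.5 (-0.62). A second probe set above background was also lower on set 2 in each gene, with 234.2 and 193.4 for Mrpl11 (-0.30) and 83.1 and 64.8 for Mrpl19 (-0.39). The brightest probe set of each gene went the other way, with 278.3 and 335.9 for Mrpl11 and 231.6 and 253.6 for Mrpl19. The next lowest were those of Mrpl48 (423.7 and 291.8, -0.57), Mrpl41 (177.5 and 126.8, -0.51) and Mrpl55 (160.9 and 115.9, -0.50). Highest on set 2 were Mrps28 (0.55), 2 probe sets of Mrpl28 (133.7 and 198.4, 0.54, and 249.7 and 330.2, 0.38), one of Mrpl21 (88.4 and 127.3, 0.50) and one of Mrps21 (0.41). Another probe set above background went the other way in Mrpl48 (244.8 and 284.6, 0.19), Mrps21 (132 and 100.5, -0.42) and Mrpl28 (217.9 and 207.5, -0.10). In Mrpl41 (-0.13) and Mrpl21 (0.08) the other one went the same way. Of 25 members with at least 2 probe sets above background, all differences had 1 sign in 11 (44%), against 39.6% of all such genes.

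Neither subunit was shifted as a whole by more than a fraction of the spread of single probe sets. Over the genes, taken at the brightest probe set above background, the median difference was -0.05 in the large subunit, with 18 genes above 0 and 29 below. In the small subunit it was -0.08, with 14 above and 15 below. The SD among genes was 0.17 and 0.22, and the median over all named genes above background was -0.01. The spread narrowed with intensity, from an SD of 0.31 over 24 member probe sets between 64 and 128 to 0.10 over 10 between 512 and 1024, where all probe sets gave 0.29 and 0.17.

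**Figure D3:**
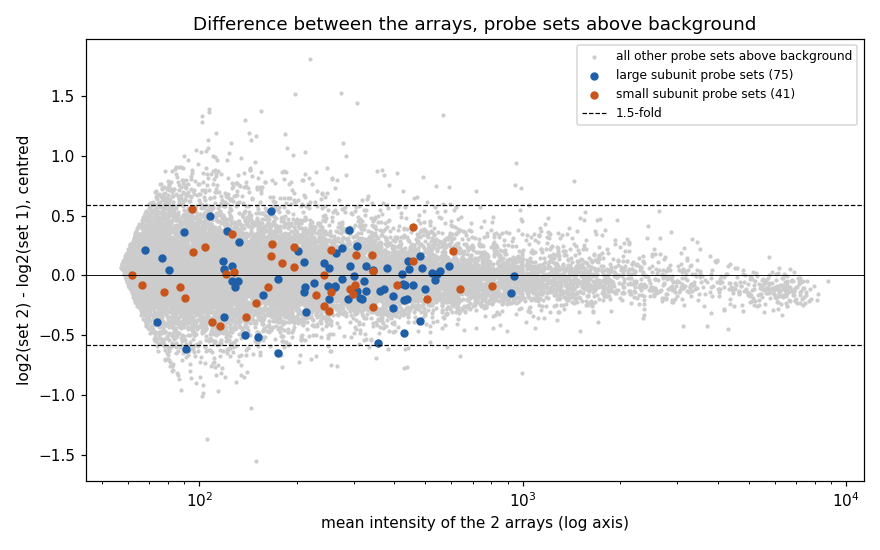
Centred log2 difference between set 2 and set 1 against the mean intensity of the 2 arrays (log axis) for probe sets above background, with 75 probe sets of the large and 41 of the small subunit over all others in grey; dashed lines mark 1.5-fold. The members lie within the cloud, and 2 large subunit probe sets fall below the lower line.

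Other proteins of the ribosome that have a symbol of another kind were detected too. Dap3, a GTP-binding protein of the small subunit, was at 413 ± 31.6, Chchd1, of the same subunit, at 478 ± 1.98, Gadd45gip1, of the large subunit, at 261 ± 16.7 and Ptcd3, a pentatricopeptide repeat protein of the small subunit, at 174 ± 11.5. These were 4 of 4 measured genes of a list of 5, of which 1 was not analysed, against 46.6% of all named genes.

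Assembly factors of the mitochondrial ribosome were above background in 21 of 25 cases, with a median level of 139 over all 25. For this list and the 3 described next, the share over all named genes is the 46.6% given above. With the bound from the second off-tissue list, where it was 38.1%, their counts were 19 of 25, 10 of 16, 11 of 18 and 20 of 26. The brightest were the helicase gene Dhx30 at 402 ± 20.2, Mterf3 at 366 ± 38.4 and the GTPase gene Eral1, which binds the small subunit RNA, at 315 ± 2.05. Gtpbp10, Mrm1, Mrm2 and Ptcd1 were not above background, at 56.1 ± 13.2, 50.7 ± 2.90, 50.8 ± 1.84 and 53.9 ± 0.283. Mrm1 and Mrm2 encode methyltransferases of the large subunit RNA, and their values lay close under the bounds.

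Mitochondrial translation factors and their partners were above background in 14 of 16 cases, with a median of 150.3. Slirp and Lrpprc, which together stabilise mitochondrial messages, were at 273 ± 12.0 and 232 ± 9.83, and the elongation factor gene Gfm1 at 241 ± 16.5. Gatb and Guf1 were not above background, at 40.4 ± 11.2 and 46.7 ± 0.0707.

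Aminoacyl-tRNA synthetases that serve mitochondria were above background in 13 of 18 cases, with a median of 123. Gars and Kars, which also serve the cytosol, were at 613 ± 34.8 and 430 ± 1.34, and Rars2 at 245 ± 2.19. Aars2, Ears2, Mars2, Sars2 and Vars2 were not above background. Sars2 had 90.9 on set 1 and 58.6 on set 2, so it missed the bound on set 2 alone.

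Genes of mitochondrial transcription, DNA maintenance and RNA processing were above background in 24 of 26 cases, with a median of 151. Ssbp1, which coats single-stranded mitochondrial DNA, was at 682 ± 38.5, Grsf1 at 522 ± 102 and Hsd17b10, a subunit of mitochondrial ribonuclease P, at 476 ± 19.7. Fastk and Prorp, the nuclease subunit of the same enzyme, were not above background, at 61.4 ± 33.9 and 48.6 ± 13.9.

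The starts of these genes were also described from sequence, which the array did not measure. RefSeq promoter windows of the GRCm38.p6 build, from 250 bases before to 50 after the start, were matched by gene identifier for 67 of the 76 genes. The ETS motif CCGGAAG, bound by the ETS factor family to which the mitochondrial regulator GABP belongs, was found on either strand in 25 of 67 windows (37.3%). It was in 23.6% of the windows of coding genes above background in these blasts and in 12.9% of all 17491 coding genes. GCGCATG, the core of the site bound by NRF1, a regulator of nuclear genes for mitochondria, was in 8 windows (11.9%), against 8.89% and 5.39%. AAGATGG, the core of a YY1 motif, was in 13 windows (19.4%), against 9.55% and 7.18%. These letters also hold ATG, as a start codon does, and matches at start codons were not told apart from others. At least 1 of the 3 motifs was in 37 windows (55.2%), against 36.7% and 22.8%, and the shares in the large and small subunit were 56.1% and 53.8%. The NRF1 letters were in 7 of 41 large subunit windows and 1 of 26 of the small subunit, a difference that was not tested.

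Shares of common promoter elements in the members were not above those in coding genes above background. The GC box GGGCGG was in 50.7% of member windows, against 70.6% of coding genes above background and 49.2% of all, the CCAAT box CCAAT in 38.8%, against 42.7% and 42.3%, the TATA box TATAAA in 7.46%, against 7.88% and 14.8%, and the E-box CACGTG in 7.46%, against 12.4% and 8.91%. None of the 7 motifs contains another, but matches of different motifs were not kept from overlapping. A match is a run of letters and not a measured binding site, and these shares, of motifs kept from a wider search after their counts were seen, were not tested. The median GC content of the windows was 58% for the members, 61.2% for coding genes above background and 56.3% for all coding genes.

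The motif letters lay wholly upstream of the start in 17 of 25 genes for ETS, 8 of 8 for NRF1 and 6 of 13 for YY1. Among the YY1 matches upstream, those of Mrpl32, Mrpl49, Mrps11 and Mrps12 lay past the start of a neighbouring gene on the opposite strand. Stretches of 30 bases are shown for members of both subunits to display where the letters sit, 5′ to 3′ on the strand of the gene, with the motif or its reverse complement in capitals. The first 5 hold the ETS motif, at chr9:105053238-105053267 (plus strand), chr6:125192099-125192128 (plus), chr9:98601680-98601709 (minus), chr14:20393546-20393575 (minus) and chr17:46110967-46110996 (plus). The next 4 hold the NRF1 letters, at chr3:94443297-94443326 (plus), chr13:14613106-14613135 (minus), chr16:84735351-84735380 (minus) and chr17:35916644-35916673 (minus). The last 2 hold the YY1 letters, at chr7:78783014-78783043 (plus) and chr14:54426807-54426836 (plus).
Mrpl3: tgagaaacggaCCGGAAGtggcccggctgt
Mrpl51: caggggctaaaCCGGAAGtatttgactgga
Mrps22: tgcacaaaaacctctcgagCCGGAAGttgc
Mrps16: ttgggggcgctCTTCCGGgcttcaggctct
Mrps18a: acacccctgctCCGGAAGcggaagtgcaca
Mrpl9: gaggcgcagctGCGCATGcgcggggtcctt
Mrpl32: ctttgacccttGCGCATGcgcaagaggggc
Mrpl39: caaggagaggcGCGCATGcgcccccgcgtg
Mrps18b: acggcccgacgCATGCGCactgggagcacc
Mrps11: tacgggcgccgCCATCTTtctgtcttccca
Mrpl52: tacgataacgcAAGATGGtgggaccggcga

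In these genes the motif ended 12 bases before the annotated start in Mrpl3, 83 in Mrpl51, 4 in Mrps22, 67 in Mrps16, 19 in Mrps18a, 21 in Mrpl9, 80 in Mrpl32, 118 in Mrpl39, 215 in Mrps18b, 99 in Mrps11 and 84 in Mrpl52. The ETS letters are in the orientation of the gene in Mrpl3, Mrpl51, Mrps22 and Mrps18a and reversed in Mrps16. No fixed distance or orientation was common to them. The letters shown for Mrps11 lie past the start of Mrpl46 on the opposite strand, 42 bases away, and so within that gene. In Mrpl9, Mrpl32 and Mrpl39 the NRF1 letters also occur in the other orientation, overlapping those shown. Mrpl9 and Mrpl39 were among the 5 large subunit genes with the highest intensities, and Mrpl32, a protein trimmed after import by an inner membrane protease, was at 343 ± 12.7. The other large subunit genes with the NRF1 letters, Mrpl10, Mrpl17, Mrpl22 and Mrpl33, had means of 313.5, 210.7, 275.3 and 251.2. Mrpl24, the brightest of the subunit, had none of the NRF1, ETS and YY1 letters in its window. A link between letters and intensity was not tested.

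**Figure D4:**
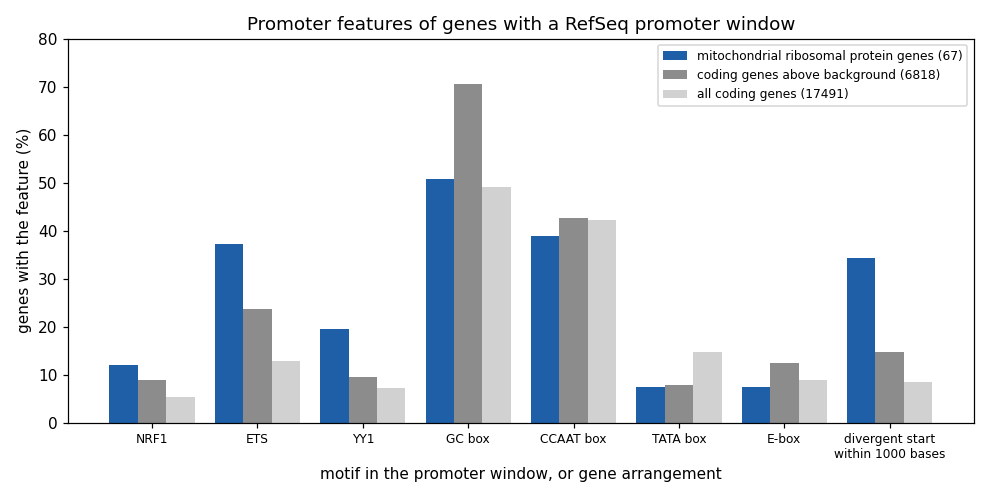
Share of genes (%) whose promoter window holds each motif on either strand, or whose start has a divergent coding start within 1000 bases, for 67 mitochondrial ribosomal protein genes, 6818 coding genes above background and 17491 coding genes. The bars of the members are the highest of the 3 for NRF1, ETS, YY1 and divergent starts (34.3%), and not for the other motifs.

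Divergent starts were also frequent. In 23 of 67 members (34.3%) another coding gene started on the opposite strand within 1000 bases upstream, against 14.7% of coding genes above background and 8.48% of all. The count was 16 of 41 in the large subunit and 7 of 26 in the small, and in 18 of the 23 the starts were at most 250 bases apart. Mrpl46 and Mrps11, 1 gene of each subunit, started 42 bases apart, and were at 266.9 and 237.4, and at 178.4 and 213.8, on set 1 and set 2.

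The neighbours were above background in 17 of 23 cases, against 46.6% of all named genes. Mrpl46 and Mrps11 are among the 17, each as the partner of the other. As members, they had already been called above background. The partners named here were chosen after their values were seen. They included Fau, whose product yields a cytosolic ribosomal protein, beside Mrpl49 (5548.1 and 4884), the chaperonin gene Tcp1 beside Mrpl18 (1863.8 and 1769), the proteasome gene Psma2 beside Mrpl32 (1503.2 and 1442.2) and Ndufb5, of respiratory complex I, beside Mrpl47 (1021.5 and 1102.2). Partners with mitochondrial functions also included Twnk, the helicase of mitochondrial DNA, beside Mrpl43 (117.6 and 86.8), Ptcd2 beside Mrps27 (345.6 and 260.7) and Sars2 beside Mrps12. The other partners not above background were Ighmbp2 (Mrpl21), Cyb5rl (Mrpl37), Zfp189 (Mrpl50), Zfp661 (Mrps5) and Helq (Mrps18c), so a detected member did not always have a detected neighbour.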

How the data were processed

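The deposited values were linear intensity values, 1 per probe set and array, with none below 0; how the authors corrected background, summarised probes and scaled arrays is not stated in the sources used here. Medians were 36.4 on set 1 and 37.9 on set 2. After 64 control probe sets were left out, 34945 probe sets had 1 gene symbol in the GEO platform annotation, 932 had several and 9160 had none. All 76 members matched RefSeq by Entrez identifier with the same symbol.

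The members, lists, motifs and rules were chosen with earlier results of these data known. The off-tissue list behind the bound was written for this work. Intensities under 1 were set to 1 before log2, and 0.03 was subtracted from differences. Genes named were a panel of functional roles, the 5 brightest genes of each subunit, members whose probe sets disagreed, the 5 largest differences in each direction, and from each further list the 3 brightest genes and up to 5 not above background. With 1 group of 2 arrays no test between groups was run, and the number of arrays limits how precise each value is. Alternatives changed the bound, the gene level, the subunit assignment, centring, offset and filter. Centring and the calls past 1.5-fold were tested on simulated data. The background calls, gene levels, lists, motifs and divergent starts were not covered by that simulation. Promoters that overlapped head to head had the same bases in 23 of 23 comparisons. The NRF1 and YY1 letters are the cores of longer motifs searched first. Further motifs and longer forms were also searched, and the 7 reported were chosen after counts of matches had been seen, so their shares are a description of selected motifs. Protein sequences were not analysed here. Python 3.11.15, numpy 2.4.6 and pandas 2.3.3 were used.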

Additional observations from a re-analysis of the deposited data

How the results depend on the processing

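Of 88 values recomputed under alternatives, 79 moved by less than the limits used, 1.5 times for a count and the spread between the arrays for a level or difference. None of the counts above background was among the other 9, except that with genes of 1 probe set only, an alternative chosen after seeing the data, fewer genes could be counted, 34 members, 19 in the large and 15 in the small subunit, all of them detected. When each gene was given the middle value of its probe sets, the median level was 238 in the large and 204.9 in the small subunit. The number of member probe sets past 1.5-fold, 2 in the report, was 1 with 16 added before log2, 0 with a mean of at least 200, 0 without _x_at and _s_at probe sets, and 21 of 156 with no filter, where 40 dim probe sets entered. Without _x_at and _s_at probe sets the small subunit's median difference was 0.0011 in place of -0.08, a move within the spread. That limit for a difference, 0.17 on the log2 scale, was wider than the medians it was applied to. A median difference could thus change sign without passing it, so such values say little about stability. On single arrays the 76 genes remained above the bound. No paired analysis was possible because the study has 1 group, and differences between the arrays could not be recomputed without one of them. Probe sets near the bound limit what can be said of Mrps10, Mrps25, Mrps27 and Mrps28.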
